A study of Mus musculus with 8 samples.

Results

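The oxidative phosphorylation (OXPHOS) genes comprise 91 mouse genes, measured by 180 of the 45101 probe sets on the array. They were chosen by symbol alone: a probe set counted if the annotation gave it 1 gene symbol that starts with Ndufa, Ndufb, Ndufc, Ndufs, Ndufv, Uqcr, Cox4 to Cox8 or Atp5, or that is Sdha, Sdhb, Sdhc, Sdhd or Cyc1. Each gene was read at the probe set whose mean over the 8 arrays was highest. Such symbols cover 36 genes of complex I, 4 of complex II, 9 of complex III, 17 of complex IV and 17 of complex V. Genes were grouped by symbol, so Ndufa4 and its relative Ndufa4l2 stand with complex I. The prefix Ndufa also took in 8 Ndufaf genes, which encode assembly factors of complex I and not subunits, and these are kept as a group of their own.

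Oxidative phosphorylation takes place in the inner mitochondrial membrane. Complexes I and II pass electrons from NADH and succinate to ubiquinone, complex III passes them on to cytochrome c and complex IV to oxygen, while complexes I, III and IV pump protons whose return through complex V, the ATP synthase, drives ATP formation. Most subunits are encoded in the nucleus and a small core set in the mitochondrial genome. Resting blood stem cells of the adult are known for a comparatively large reliance on glycolysis, and mitochondrial respiration is known to be needed when they differentiate. The cells of this series were fetal.

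The series compared fetal liver haematopoietic stem cells of Crebbp+/- embryos with those of wild-type embryos, all on a C57BL/6 background. Crebbp encodes CBP, a histone acetyltransferase and coactivator, and the series title ties its loss to DNA repair defects and myelodysplastic syndrome. The sorted fraction was Sca-1+, Lin-, AA4.1+ and c-Kit++. Cells of 15 embryos went into each sample, and the Ovation kit amplified 12 ng of their RNA for Affymetrix mouse arrays. Each genotype had 2 numbered samples with 2 arrays each. Age is given as 14.5 days post coitum in the description of each sample and as 14 in its characteristics. The labels do not say which part of Crebbp the mutant allele lacks, whether the cells were sorted on separate days, or what the sample number stands for. The 2 arrays of a sample were averaged, so n = 2 per genotype, and p-values measure the spread between these samples, which may be technical.

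Values are GCRMA log2 signals, whose precision the number of arrays limits. Over all probe sets, r between the 2 arrays of the same sample had a median of 0.991. The median absolute difference between the 2 arrays of a sample, over the OXPHOS genes, was 0.11 and 0.08 in Crebbp+/- samples 1 and 2, and 0.21 and 0.13 in wild-type samples 1 and 2. Crebbp itself, at the brightest of its 4 probe sets, read 11.95 and 11.66 in Crebbp+/- samples 1 and 2, against 12.07 and 11.41 in wild-type samples 1 and 2. The genotypes overlapped there and at the next brightest set. At the other 2 sets both Crebbp+/- samples were lower, by differences of -0.42 ± 0.29 and -0.35 ± 0.24 (SE, limma adjusted p 0.991 each). Since the labels do not place the mutation, these probe sets do not check the genotype labels. Of 10 listed stem and progenitor markers, 9 had a probe set with 1 symbol and all 9 lay above the filter of 2.72, Kit and Cd93 (the AA4.1 antigen) among them. Among 8 measured hepatocyte markers, Alb, Afp, Apoa1, Apoa2 and Ttr lay above the filter and Ahsg, Fgb and Fgg did not. The summed hepatocyte signal was 8.35 and 8.89 (log2) in Crebbp+/- samples 1 and 2, against 5.97 and 9.81 in wild-type samples 1 and 2. Of the markers of other blood cells above the filter, all 5 lymphoid ones lay higher in Crebbp+/- (median log2 difference 0.73) and all 4 megakaryocyte ones lower (median -0.69). Summed signals (log2) cover all measured markers of a type, those under the filter included. The 6 lymphoid markers gave 8.55 and 9.38 in Crebbp+/- samples 1 and 2, against 7.37 and 8.74 in wild-type samples 1 and 2. The 6 megakaryocyte markers gave 6.25 and 6.59 in Crebbp+/- samples 1 and 2, against 7.34 and 7.41 in wild-type samples 1 and 2. The 7 macrophage markers gave 9.46 and 10.98 in Crebbp+/- samples 1 and 2, against 9.95 and 10.84 in wild-type samples 1 and 2. Only 2 of 6 measured erythroid markers, Slc4a1 and Tfrc, lay above the filter. Slc4a1 read 2.93 and 3.45 in Crebbp+/- samples 1 and 2, against 2.46 and 2.52 in wild-type samples 1 and 2. It thus passed the filter only through the Crebbp+/- samples. For Tfrc the samples of the genotypes overlapped. The part of these markers in the OXPHOS values was not tested. The Gapdh control's 5' signal lay below its 3' signal by log2 differences of -0.89 and -1.88 in Crebbp+/- samples 1 and 2, against -1.22 and -2.59 in wild-type samples 1 and 2. In both genotypes the Gapdh value was lower in the sample numbered 2. A bulk sample cannot tell fewer cells of a type from less RNA per cell.

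Promoters of 5 genes are shown for the motif letters that OXPHOS promoters are known for. Among them are genes that share letters but differed in opposite directions by sample number at their brightest probe sets. NRF1, the ETS-family factor GABP and YY1 are textbook regulators of nuclear genes for mitochondrial proteins. Sequences run from 250 bases before to 50 bases after the transcript start, 5′ to 3′ on the gene's strand, from RefSeq on GRCm38.p6. Capitals mark the NRF1 letters (GCGCA, any base, GCGC) or the ETS letters CCGGAAG on either strand. Cox6a1, the widely expressed isoform of a complex IV subunit, holds both motifs (chr5:115348909-115349208, minus strand). The flavoprotein of complex II, Sdha (chr13:74350191-74350490, minus strand), and Atp5o, a peripheral stalk subunit of complex V (chr16:91931581-91931880, minus strand), hold the NRF1 letters. Ndufs8, an iron-sulfur core subunit of complex I (chr19:3912725-3913024, minus strand), and Uqcrh, the hinge protein of complex III (chr4:116075021-116075320, minus strand), hold the ETS letters.
Cox6a1: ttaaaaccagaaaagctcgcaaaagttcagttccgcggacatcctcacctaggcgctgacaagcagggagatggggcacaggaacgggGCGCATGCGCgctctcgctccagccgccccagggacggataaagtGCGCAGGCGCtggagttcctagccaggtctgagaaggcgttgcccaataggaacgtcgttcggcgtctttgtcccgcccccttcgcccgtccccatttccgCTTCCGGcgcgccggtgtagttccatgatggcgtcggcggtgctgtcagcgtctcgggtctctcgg
Sdha: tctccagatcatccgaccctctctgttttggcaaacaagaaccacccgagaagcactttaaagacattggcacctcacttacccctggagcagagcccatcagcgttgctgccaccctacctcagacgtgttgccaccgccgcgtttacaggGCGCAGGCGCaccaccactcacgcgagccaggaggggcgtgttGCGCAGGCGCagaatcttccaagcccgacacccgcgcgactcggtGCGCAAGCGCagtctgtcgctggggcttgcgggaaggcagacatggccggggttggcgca
Atp5o: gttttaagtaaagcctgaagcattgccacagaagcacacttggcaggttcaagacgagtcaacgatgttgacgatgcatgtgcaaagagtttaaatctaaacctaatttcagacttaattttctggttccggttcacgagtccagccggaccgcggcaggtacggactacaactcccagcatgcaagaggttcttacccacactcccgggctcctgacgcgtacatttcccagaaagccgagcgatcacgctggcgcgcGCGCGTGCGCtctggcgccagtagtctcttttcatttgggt
Ndufs8: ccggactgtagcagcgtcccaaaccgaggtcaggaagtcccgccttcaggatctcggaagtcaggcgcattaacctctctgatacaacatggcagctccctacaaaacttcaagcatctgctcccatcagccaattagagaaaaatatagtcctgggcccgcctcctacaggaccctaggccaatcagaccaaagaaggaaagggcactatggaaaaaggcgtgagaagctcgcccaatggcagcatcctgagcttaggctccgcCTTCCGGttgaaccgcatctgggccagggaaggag
Uqcrh: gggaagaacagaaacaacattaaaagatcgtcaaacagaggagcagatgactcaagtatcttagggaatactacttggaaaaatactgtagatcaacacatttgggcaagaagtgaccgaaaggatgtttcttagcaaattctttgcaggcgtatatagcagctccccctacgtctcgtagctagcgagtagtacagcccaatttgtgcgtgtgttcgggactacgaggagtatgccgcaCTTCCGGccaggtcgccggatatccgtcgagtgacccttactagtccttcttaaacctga

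RefSeq promoters were found for 74 of the 91 genes, 79 promoters in all. The NRF1 letters stood in 17 of the 74 genes, or 23.0%, against 12.5% of the 8673 genes above the filter that had a promoter and 5.19% of all 27025 genes with one. The ETS letters stood in 19 genes, or 25.7%, against 21.6% of the genes above the filter and 9.93% of all genes. The YY1 letters AAGATGGCG stood in 7 genes, or 9.46%, against 3.90% and 1.64%. A TATA box spelled TATAAA stood in 8 genes, or 10.8%, against 8.31% of the genes above the filter and 15.7% of all genes. The 74 genes include Ndufb4, Cox7b2 and Cox8b, which lay under the filter, so they are not quite the same kind of set as the genes above it. Ndufb4 is among the genes with the NRF1 letters, and Cox7b2 and Cox8b are among those with the TATA box. Both strands were searched for each motif and each motif was counted by itself, also where matches overlapped. Ndufs8 and Uqcrh share the ETS letters and Sdha and Atp5o the NRF1 letters. At their brightest probe sets, the genes of each pair lay on opposite sides in the comparison of sample numbers given further on. These genes are among those called there, and the pairs were formed with those values known. Their opposite sides therefore do not test whether genes that share letters differ in the same direction. At its dimmer probe set Atp5o gave 0.34, on the same side as Sdha. The probe sets of Ndufs8 above the filter ran between -0.09 and 0.71. These matches describe letters and not bound sites.

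**Figure D1:**
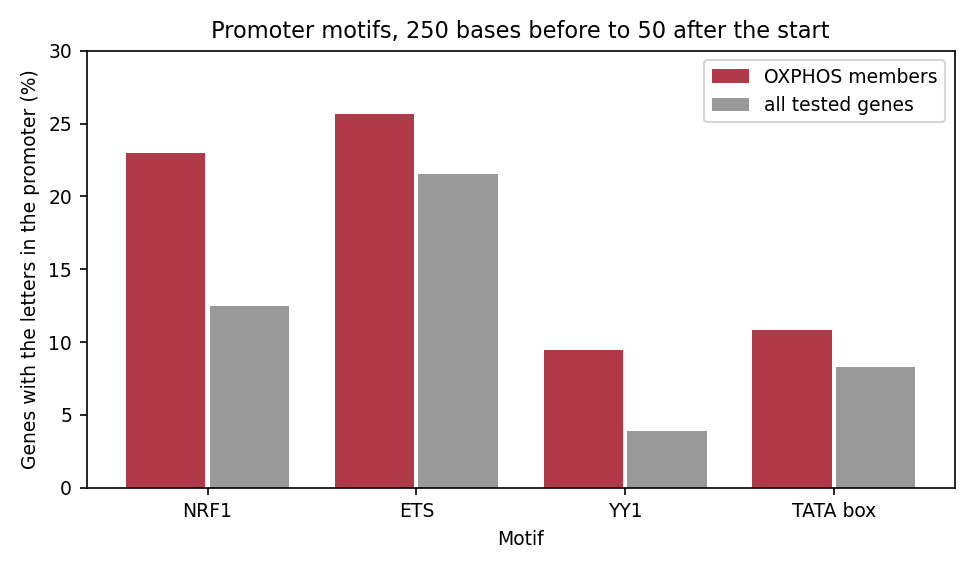
Share of genes (percent, vertical axis) whose promoter holds each motif (horizontal axis), for OXPHOS genes (red bars, 74 genes) and all genes above the filter (grey bars, 8673 genes). The NRF1 bars stand at 23.0% and 12.5% and the ETS bars at 25.7% and 21.6%. The 74 genes include Ndufb4, Cox7b2 and Cox8b, which lay under the filter.

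Most of these genes gave strong signals in both genotypes. Of these 91 genes, 86 had a mean above 2.72, the median over all probe sets, and 81 lay in the upper 25% of all probe sets. Means of the 86 ran between 3.16 for Cox7a1 and 13.27 for Cox7a2, both complex IV isoforms. Signals of different probe sets cannot be ranked as amounts of RNA, since each has its own probes. By complex, 34 of 36 genes of complex I passed, 8 of 8 Ndufaf genes, 4 of 4 of complex II, 9 of 9 of complex III, 14 of 17 of complex IV and 17 of 17 of complex V. The genes that did not pass were Ndufb4 of complex I, Ndufa4l2, a hypoxia-induced relative of Ndufa4, and the tissue-restricted isoforms Cox7b2, Cox8b and Cox8c. Cox8c, the testis isoform, lay closest under the filter, with 2.46 and 2.43 in Crebbp+/- samples 1 and 2 and 2.57 and 3.39 in wild-type samples 1 and 2. Cox7a1 lay closest above it, with 3.67 and 3.03 in Crebbp+/- samples 1 and 2 and 2.87 and 3.06 in wild-type samples 1 and 2.

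No OXPHOS gene passed the test between Crebbp+/- and wild-type stem cells, and the measured differences were small. In limma with Benjamini-Hochberg adjustment over 22518 probe sets, 0 of the 86 passed at 0.05, with a lowest adjusted p of 0.991, and the background was 0% of all probe sets. At an unadjusted p under 0.05, 0 of the 86 passed in limma, against 4.84% of probe sets and 2.67% of the 10600 genes taken with 1 probe set each. The difference, Crebbp+/- minus wild type, was above 0 in 42 genes and below 0 in 44, with a median of -0.01, against 0.04 over all genes tested, of which 56.9% lay above 0. Its median size without sign was 0.09, against 0.18 over all genes tested and 0.17 over the probe sets in the upper 25% by signal. A size over 0.5 was seen in 0 of the 86 genes, against 12% of all genes tested and 11.6% of the bright probe sets. The lowest and highest differences were -0.45 for Cox4i2 and 0.44 for Cox6a2. Leaving out 1 sample or array moved the median of the 86 genes between -0.04 and 0.04, so its sign was not settled.

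The intervals bound what these samples could have shown. The 95% confidence interval of the genotype difference lay within 1 log2 unit on either side of 0 for 74 of the 86 genes, or 86.0%, against 56.4% of all genes tested. Its median half-width over the 86 genes was 0.51, and over the 17 genes of complex V 0.43. With 2 samples against 2, an exact permutation test cannot go below 0.33.

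**Figure D2:**
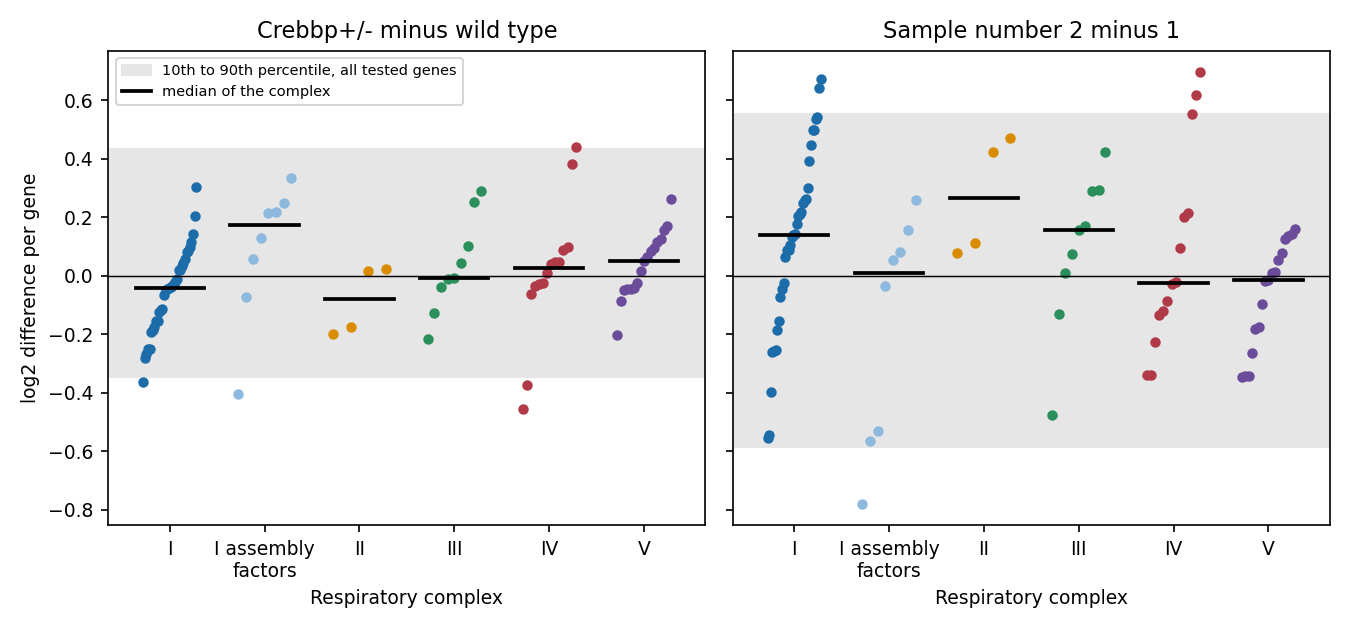
Log2 difference of each of the 86 genes above the filter (vertical axis) by respiratory complex (horizontal axis), for Crebbp+/- minus wild type on the left and sample number 2 minus 1 on the right. Points are genes, black bars are the medians of each complex, and the grey band spans the 10th to 90th percentile of all genes tested. In the genotype panel the complex medians lie between -0.08 and 0.17, and in the sample number panel between -0.02 and 0.27.

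Complex I, which oxidises NADH, had 12 genes with a genotype difference above 0 and 22 below, with a median of -0.04. Its 6 measured core subunits, the conserved set that carries out electron transfer, had a median of -0.11. The other 28 measured genes, accessory subunits with Ndufa4 among them, had a median of -0.04. Ndufs1, the largest iron-sulfur core subunit, was the only one of the 86 OXPHOS genes whose 4 arrays in Crebbp+/- all lay above the 4 in wild type. This separation in either direction was seen in 5.67% of all genes tested. Ndufs1 had signals of 9.67 and 9.82 in Crebbp+/- samples 1 and 2, against 9.53 and 9.55 in wild-type samples 1 and 2. The difference was 0.20 ± 0.18 (SE), with a limma adjusted p of 0.991, so it did not pass the test.

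Ndufa13, an accessory subunit also known as GRIM-19, had 11.95 and 12.00 in Crebbp+/- samples 1 and 2, against 12.11 and 12.19 in wild-type samples 1 and 2. Both Crebbp+/- samples were lower, by a mean of -0.18 ± 0.12 (SE, limma adjusted p 0.991). Ndufb7, an accessory subunit that faces the intermembrane space, had 11.78 and 12.26 in Crebbp+/- samples 1 and 2, against 12.23 and 12.34 in wild-type samples 1 and 2. Here the genotypes overlapped, and the low value was that of Crebbp+/- sample 1 alone. The brightest probe sets of complex I belonged to the accessory subunits Ndufb11, Ndufc2 and Ndufb7. Ndufb11 averaged 12.74 ± 0.03 in Crebbp+/- and 12.86 ± 0.16 in wild type (SD, n = 2 each). Ndufc2 averaged 12.55 ± 0.05 in Crebbp+/- and 12.53 ± 0.16 in wild type (SD, n = 2 each).

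The 8 Ndufaf assembly factors, which help to build complex I, had the complex-level median farthest from 0, at 0.17, with 6 genes above 0 and 2 below. This median was -0.03 without wild-type sample 2, so its sign rested on that sample. It was 0.05 without Crebbp+/- sample 1. Ndufaf8 had 10.43 and 11.11 in Crebbp+/- samples 1 and 2, against 11.26 and 11.09 in wild-type samples 1 and 2. A single Crebbp+/- sample was low and the other lay within the wild-type range, for a difference of -0.40 ± 0.27 (SE, limma adjusted p 0.991). Ndufaf4 averaged 9.97 ± 0.11 in Crebbp+/- and 10.04 ± 0.04 in wild type, and Ndufaf2 9.34 ± 0.53 in Crebbp+/- and 9.12 ± 0.27 in wild type (SD, n = 2 each).

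Complex II, succinate dehydrogenase, had 2 genes above 0 and 2 below, with a median of -0.08. Sdhb, its iron-sulfur subunit, had 9.77 and 9.87 in Crebbp+/- samples 1 and 2, against 9.96 and 10.08 in wild-type samples 1 and 2. Both Crebbp+/- samples lay lower, at a difference of -0.20 ± 0.17 (SE, limma adjusted p 0.991). Sdha, which binds the flavin, averaged 11.01 ± 0.22 in Crebbp+/- and 10.99 ± 0.45 in wild type (SD, n = 2 each). Sdhd, a membrane anchor, averaged 10.22 ± 0.27 in Crebbp+/- and 10.40 ± 0.33 in wild type (SD, n = 2 each).

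In complex III, the cytochrome bc1 complex, the difference was above 0 in 4 genes and below 0 in 5, with a median of -0.01. Uqcrq, a small subunit, had 9.38 and 9.16 in Crebbp+/- samples 1 and 2, against 8.86 and 9.10 in wild-type samples 1 and 2. Its genotypes did not overlap, with a difference of 0.29 ± 0.22 (SE, limma adjusted p 0.991), while its dimmer probe set gave -0.12. Uqcrb averaged 12.44 ± 0.08 in Crebbp+/- and 12.57 ± 0.16 in wild type, and the core protein gene Uqcrc2 12.32 ± 0.11 in Crebbp+/- and 12.33 ± 0.30 in wild type (SD, n = 2 each). For Uqcrh these means were 11.83 ± 0.36 in Crebbp+/- and 11.84 ± 0.32 in wild type (SD, n = 2 each).

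Complex IV, cytochrome c oxidase, had 8 genes above 0 and 6 below, with a median of 0.03. Several of its nuclear subunits exist as isoforms, and here the widely expressed forms lay far above the filter. Cox4i1, the common form of subunit IV, had 11.39 and 11.28 in Crebbp+/- samples 1 and 2, against 11.43 and 11.28 in wild-type samples 1 and 2. Cox4i2, the form known from lung and low oxygen, had 4.83 and 4.83 in Crebbp+/- samples 1 and 2, against 5.07 and 5.50 in wild-type samples 1 and 2. Both Crebbp+/- samples were lower for Cox4i2, at -0.45 ± 0.29 (SE). Its 95% interval ran between -1.22 and 0.31, with a limma adjusted p of 0.991. On single arrays the genotypes overlapped.

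In the other isoforms above the filter that are named next, the samples of the genotypes overlapped. Cox6a1 averaged 11.84 ± 0.09 in Crebbp+/- and 11.80 ± 0.19 in wild type, and its heart and muscle form Cox6a2 averaged 4.90 ± 0.41 in Crebbp+/- and 4.46 ± 0.58 in wild type (SD, n = 2 each). Cox7a2, the widely expressed form, averaged 13.29 ± 0.10 in Crebbp+/- and 13.25 ± 0.08 in wild type, and the heart and muscle form Cox7a1 3.35 ± 0.45 in Crebbp+/- and 2.96 ± 0.14 in wild type (SD, n = 2 each). Cox7a2l averaged 11.21 ± 0.28 in Crebbp+/- and 11.28 ± 0.20 in wild type (SD, n = 2 each). Cox6b1 averaged 11.66 ± 0.09 in Crebbp+/- and 11.57 ± 0.05 in wild type, and its testis form Cox6b2 7.63 ± 0.41 in Crebbp+/- and 7.67 ± 0.07 in wild type (SD, n = 2 each). Cox8a, the common subunit VIII, averaged 10.11 ± 0.02 in Crebbp+/- and 10.01 ± 0.14 in wild type, whereas Cox8b and Cox7b2, under the filter and not tested, lay at 2.36 and 2.30 in both genotypes. Ndufa4 is now assigned to complex IV but stays with complex I, for which it is named, in the counts given here. Ndufa4 averaged 10.68 ± 0.15 in Crebbp+/- and 10.58 ± 0.22 in wild type (SD, n = 2 each). Cox5b, a zinc-binding subunit, averaged 13.15 ± 0.06 in Crebbp+/- and 13.10 ± 0.19 in wild type (SD, n = 2 each).

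Complex V, the ATP synthase, had 10 genes above 0 and 7 below, with a median of 0.05. Atp5g1 encodes the c subunit of the rotor ring, as do Atp5g2 and Atp5g3. It had 11.03 and 10.89 in Crebbp+/- samples 1 and 2, against 10.81 and 10.59 in wild-type samples 1 and 2. The Crebbp+/- samples lay higher, at 0.26 ± 0.16 (SE). The 95% interval ran between -0.17 and 0.69, with a limma adjusted p of 0.991. Atp5g3 averaged 12.69 ± 0.03 in Crebbp+/- and 12.64 ± 0.01 in wild type (SD, n = 2 each). Atp5a1, the alpha subunit of the catalytic head, averaged 12.94 ± 0.11 in Crebbp+/- and 12.98 ± 0.08 in wild type, and Atp5c1, of the central stalk, 12.42 ± 0.05 in Crebbp+/- and 12.47 ± 0.03 in wild type (SD, n = 2 each). All 17 genes of complex V had a 95% interval within 1 log2 unit of 0.

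**Figure D3:**
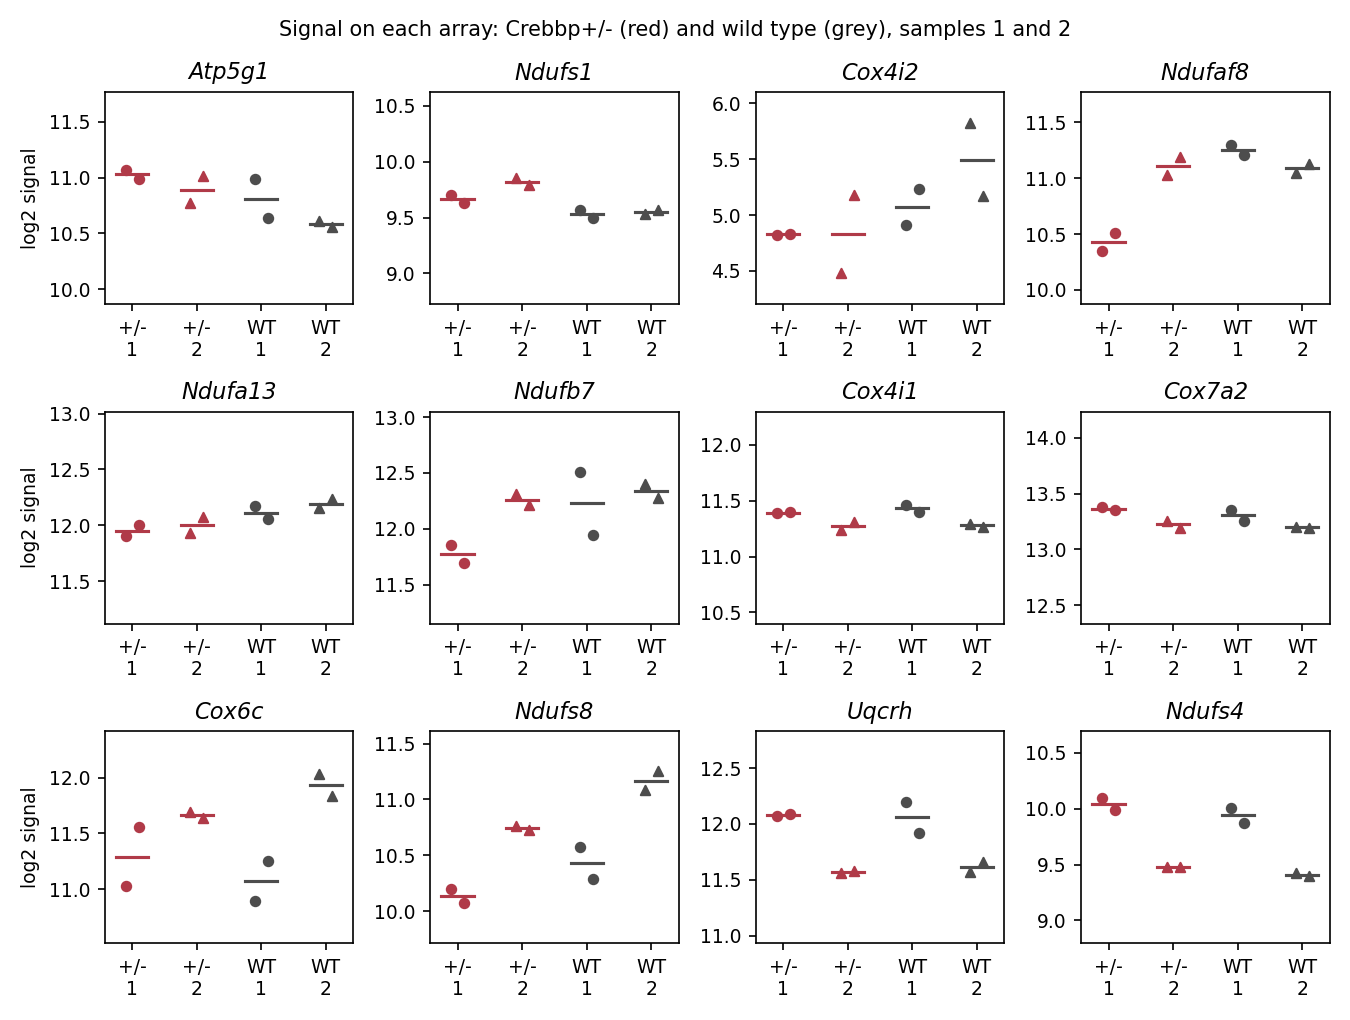
Log2 signal (vertical axis) of 12 OXPHOS genes on each array, for Crebbp+/- samples 1 and 2 (red) and wild-type samples 1 and 2 (grey), with circles for samples numbered 1, triangles for those numbered 2 and short lines for the sample means. All panels have the same vertical span. Cox6c and Ndufs8 lie higher in both samples numbered 2 and Uqcrh and Ndufs4 lower, and of the 12 genes Ndufs1 alone has all Crebbp+/- arrays above all wild-type arrays.

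The genotype difference of each gene was also read within the samples of the same number. Its median was 0.02 in the samples numbered 1 and -0.04 in those numbered 2. A gene had the same sign in both in 45 of 86 cases, or 52.3%, against 61.9% of all genes tested. Across the 86 genes the differences of both pairs had r = -0.01, against 0.32 across all genes tested. These are descriptions across genes, which are not independent replicates. Both Crebbp+/- samples lay above both wild-type samples for 9 genes and below them for 5, against a background of 17.1% and 11% of all genes tested. The 9 were Ndufa12, Ndufs1, Ndufaf1, Ndufaf6, Uqcr11, Uqcrq, Atp5b, Atp5g1 and Atp5g3, and the 5 were Ndufa13, Ndufb1, Ndufs5, Sdhb and Cox4i2.

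**Figure D4:**
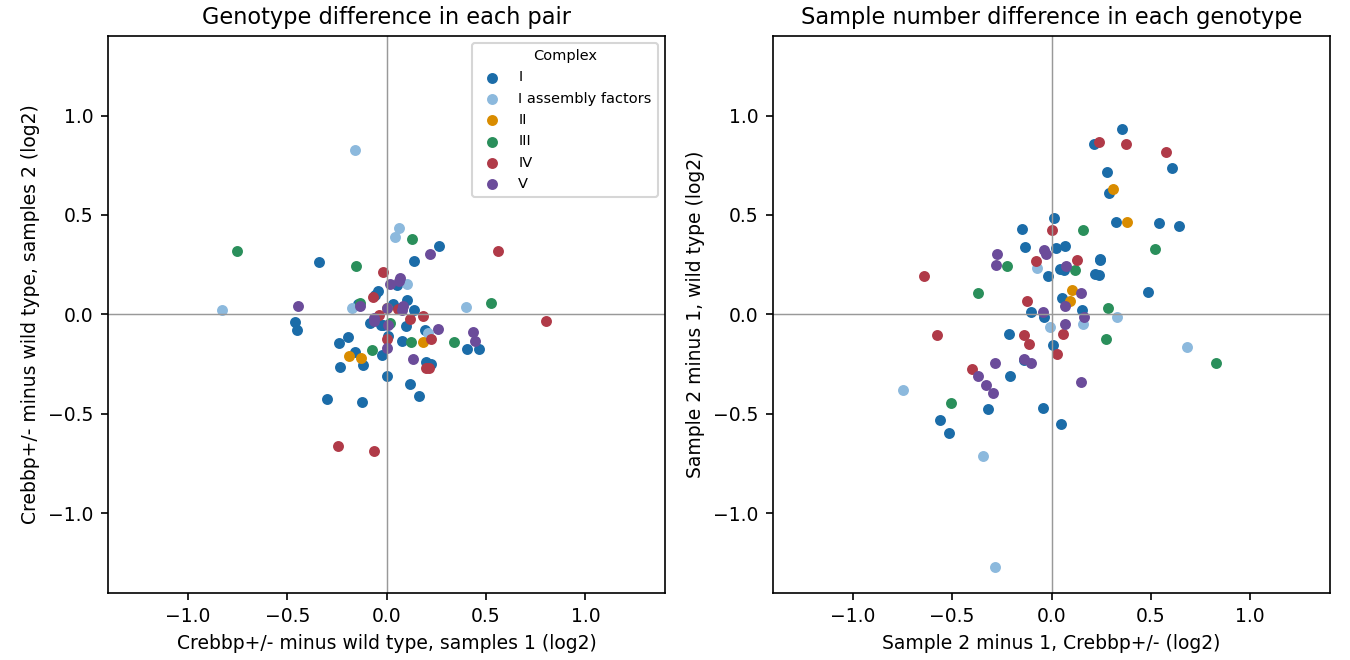
Log2 differences of the 86 OXPHOS genes, coloured by complex. The left panel sets Crebbp+/- minus wild type in the samples numbered 1 (horizontal axis) against the samples numbered 2 (vertical axis), and the right panel sets sample 2 minus 1 in Crebbp+/- (horizontal axis) against wild type (vertical axis). Points scatter around 0 on the left, with r = -0.01, and along the rising diagonal on the right, with r = 0.54.

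Differences between samples numbered 2 and 1 had a larger median size than those between genotypes, and none passed the test without a genotype term. In limma with the sample number as the only factor, 0 of the 86 genes had an adjusted p under 0.05, with a lowest of 0.178 and a background of 0%. At an unadjusted p under 0.05, 25 of the 86 passed in limma, 14 of them higher in number 2, against a background of 20.1% of all genes tested, with 9.99% higher. The difference, number 2 minus number 1, was above 0 in 52 genes and below 0 in 34, with a median of 0.08 against 0.03 over all genes tested, of which 53.6% lay above 0. Its median size without sign was 0.19, against 0.28 over all genes tested. The sign was the same in both genotypes in 59 of 86 genes, or 68.6%, against 73.1% of all genes tested, and in complex V in 9 of 17 and in the Ndufaf factors in 4 of 8. The r across the 86 genes was 0.54, against 0.58 across all genes tested.

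With genotype as a block, which left 1 residual degree of freedom, limma called 10 OXPHOS genes at an adjusted p under 0.05, 6 of them higher and 4 lower in the samples numbered 2. Of all 22518 probe sets, 9.81% were called in this fit, and 10.7% of the genes taken with 1 probe set each. The 10 of 86 OXPHOS genes called are a share close to that background. The lowest adjusted p was 0.0205, for Ndufs8, and that of Ndufs7 lay just under the threshold. Complex I holds 6 of the 10, and 34 of the 86 genes.

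Core subunits of complex I made up 3 of the 6 higher genes. Ndufs8 had 10.74 and 11.17 in Crebbp+/- and wild-type samples numbered 2, against 10.14 and 10.43 in those numbered 1, a difference of 0.67 ± 0.10 (SE, limma adjusted p 0.0205 with genotype as a block). Ndufv1, which binds NADH and the flavin, had 10.71 and 10.83 in Crebbp+/- and wild-type samples numbered 2, against 10.17 and 10.37 in those numbered 1. Ndufs7, which lies near the ubiquinone site, had 11.28 and 11.72 in Crebbp+/- and wild-type samples numbered 2, against 10.99 and 11.12 in those numbered 1. In Ndufs8 and Ndufv1 all 4 arrays numbered 2 lay above all 4 numbered 1, which was the case for 14 of the 86 genes and 12.8% of all genes tested. Over their probe sets above the filter, the difference ran between -0.09 and 0.71 in Ndufs8 and between -0.03 and 0.50 in Ndufv1.

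The other higher genes came from complexes I, II and IV. Cox6c, a small subunit of complex IV, had 11.67 and 11.94 in Crebbp+/- and wild-type samples numbered 2, against 11.29 and 11.08 in those numbered 1, a difference of 0.62 ± 0.13 (SE, limma adjusted p 0.0356 with genotype as a block). Sdha had 11.17 and 11.31 in Crebbp+/- and wild-type samples numbered 2, against 10.86 and 10.68 in those numbered 1. Ndufb9, an accessory subunit of the membrane arm, had 10.37 and 10.31 in Crebbp+/- and wild-type samples numbered 2, against 9.73 and 9.87 in those numbered 1. In each of the 6 higher genes both samples numbered 2 lay above both numbered 1, as they did in 31 of the 86 genes and 30.9% of all genes tested.

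Of the 4 lower genes, Uqcrh had 11.57 and 11.61 in Crebbp+/- and wild-type samples numbered 2, against 12.08 and 12.06 in those numbered 1, a difference of -0.48 ± 0.08 (SE, limma adjusted p 0.0236 with genotype as a block). Ndufa9, an accessory subunit near the ubiquinone site, had 10.99 and 10.64 in Crebbp+/- and wild-type samples numbered 2, against 11.50 and 11.24 in those numbered 1. Ndufs4, an accessory subunit whose loss in mice gives a model of Leigh syndrome, had 9.48 and 9.41 in Crebbp+/- and wild-type samples numbered 2, against 10.04 and 9.94 in those numbered 1. Atp5o had 11.63 and 11.60 in Crebbp+/- and wild-type samples numbered 2, against 11.96 and 11.96 in those numbered 1. In these 4 genes all arrays numbered 2 lay below all numbered 1, as in 14 of the 86 genes and 11.4% of all genes tested. Ndufb10, a membrane arm subunit, was lower by a like amount, at -0.40 ± 0.10 (SE), with a limma adjusted p of 0.0528 with genotype as a block.

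By complex, the median difference of number 2 minus number 1 was 0.14 in complex I, 0.01 in the Ndufaf factors, 0.27 in complex II, 0.16 in complex III, -0.02 in complex IV and -0.01 in complex V. Complex I had 23 genes above 0 and 11 below, and all 4 genes of complex II lay above 0. In complex I the sign was the same in both genotypes for 28 of 34 genes, with r = 0.71 across them. Complex V had 8 genes above 0 and 9 below. Without Crebbp+/- sample 2 the median of complex III was -0.02, and without Crebbp+/- sample 1 that of complex IV was 0.08. The summed hepatocyte signal given above was higher in number 2 in both genotypes, far more so in wild type. All 4 macrophage markers above the filter had a higher mean in number 2 (median 0.79). Csf1r and C1qb were higher in both genotypes, C1qb from 2.77 and 2.59, near the filter, in Crebbp+/- and wild-type samples numbered 1. Mrc1 passed the filter only through Crebbp+/- sample 2, and Cd68 was lower in number 2 in wild type, at -0.14. The Gapdh 5' signal was lower in number 2 in both genotypes. Between numbers 2 and 1 the Gapdh probe sets differed by -1.10 at the 5' end, -0.53 in the middle and 0.09 at the 3' end. The part of these measures in the differences of the OXPHOS genes was not tested.

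The comparison of sample numbers depended on which probe set was read, and averaging all probe sets per gene gave medians of 0.08 in complex II and 0.07 in complex III. Of the 49 genes with over 1 probe set above the filter, the probe sets gave the same sign for the sample number difference in 12 and for the genotype difference in 23. The median span between a gene's probe sets was 0.44 by sample number and 0.18 by genotype. Ndufs4 spanned -0.55 at its brightest probe set to 0.52 at the next, and Atp5c1 spanned 0.05 at its brightest to -1.42 at its dimmer. By genotype no gene spanned over 1 log2 unit, and the widest span, 0.74, was that of Cox5b, between -0.69 at a dim probe set and 0.05.

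Among the 32 OXPHOS genes with exactly 2 probe sets above the filter, the brighter gave the larger number 2 minus number 1 value in 26, or 81.3%, against 55.2% of 2811 genes of this kind on the array. The median was 0.19 at the brighter probe sets and -0.09 at the dimmer, against 0.03 and -0.02 over those 2811 genes. Opposite signs with the brighter above 0 were seen in 20 of the 32 genes and with the brighter below 0 in 4. In Sdhd, the brighter probe set read 10.41 and 10.63 in Crebbp+/- and wild-type samples numbered 2, against 10.03 and 10.16 in those numbered 1, while the dimmer read 9.99 and 9.92 in those numbered 2, against 10.41 and 10.17 in those numbered 1. In Atp5o the order was the other way round, with -0.34 at the brighter and 0.34 at the dimmer. Cox6c gave 0.62 at its brighter probe set and -0.06 at its dimmer, and Ndufb9 gave 0.54 and -0.20. Only 8 of the 32 genes, or 25%, had the same sign at both, against 54.9% of the 2811. For the genotype difference the same sign was seen in 17 of 32, or 53.1%, against 58.9%.

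**Figure D5:**
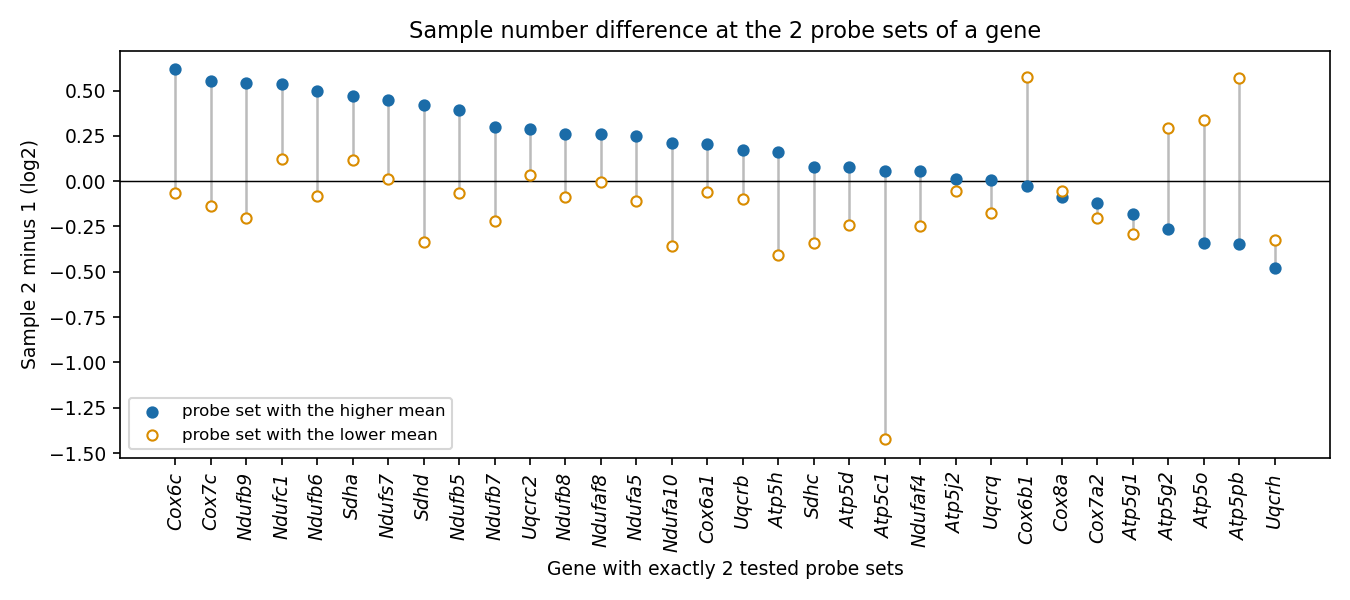
Log2 difference of samples numbered 2 minus 1 (vertical axis) at the brighter (filled blue) and dimmer (open orange) probe set of the 32 OXPHOS genes with exactly 2 probe sets above the filter (horizontal axis). A grey line joins the probe sets of a gene. In 26 of the 32 genes the brighter point lies above the dimmer.

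Sample number differences were also read by the kind of probe set. Of the 30 OXPHOS genes read at a probe set whose name ends in _a_at, which Affymetrix gives to sets that match several transcripts of a gene, 23 were higher in number 2, with a median of 0.19. Of the 36 read at a plain _at set, 16 were higher, with a median of -0.02. Over all probe sets tested, 50.9% of _a_at sets and 46.8% of plain _at sets were higher in number 2. Of the 13 genes read at an _s_at set, 9 were higher, against 55.4% of all such sets, and of the 7 read at an _x_at set, 4 were higher, against 79.0% of all such sets. How the sets lie along the transcripts was not analysed here.

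Genes that work alongside the chain were read in the same limma fits. By genotype, no gene of the 5 lists that follow passed, and none had an unadjusted p under 0.05. By sample number, none passed at an adjusted p under 0.05. An unadjusted p under 0.05 was seen in 6 of 37 other assembly factors and 5 of 16 carriers and coenzyme Q genes. The same held for 4 of 19 regulators, 5 of 17 genes of the tricarboxylic acid cycle and 6 of 18 of glycolysis. The background at this threshold was 20.1% of all genes tested. The values that follow are genotype differences. Of 37 measured assembly factors outside the Ndufaf group, 24 lay above 0 and 13 below, with a median of 0.09, and Pet100 and Cox15, both of which act in the assembly of complex IV, had -0.55 ± 0.22 and 0.36 ± 0.15 (SE, limma adjusted p 0.991 each). Of 16 mobile carriers and coenzyme Q genes, 9 lay above 0 and 7 below, with a median of 0.02. Etfdh, which feeds electrons from fatty acid oxidation into ubiquinone, gave 0.37 and Pdss2, of the coenzyme Q side chain, 0.37. Of 19 regulators of mitochondrial genes, 10 lay above 0 and 9 below, with a median of 0.00. Tefm, an elongation factor of mitochondrial transcription, had 7.54 and 6.90 in Crebbp+/- samples 1 and 2, against 6.60 and 6.19 in wild-type samples 1 and 2. Its difference of 0.83 ± 0.35 (SE) had a limma adjusted p of 0.991. Esrra had 3.76 and 4.19 in Crebbp+/- samples 1 and 2, against 4.22 and 4.70 in wild-type samples 1 and 2. Both Crebbp+/- samples were lower for Esrra, at -0.48 ± 0.31 (SE, limma adjusted p 0.991).

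The pathways that supply fuel to the chain were the last 2 lists. In the tricarboxylic acid cycle 10 of 17 genes lay above 0 and 7 below, with a median of 0.04. The pyruvate dehydrogenase components Dlat and Dld gave 0.46 ± 0.35 and 0.39 ± 0.25 (SE). In glycolysis 9 of 18 lay above 0 and 9 below, with a median of -0.01. Ldhb, a lactate dehydrogenase subunit, had 8.46 and 8.80 in Crebbp+/- samples 1 and 2, against 9.09 and 9.63 in wild-type samples 1 and 2, and its difference of -0.73 ± 0.28 (SE) had a limma adjusted p of 0.991. Both Crebbp+/- samples were lower for Ldhb, but the difference did not pass the test. Pfkp, a phosphofructokinase, gave -0.32 ± 0.23 (SE).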

How the data were processed

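RNA of 4 samples (2 Crebbp+/-, 2 wild type) was measured on 8 arrays. The deposited values are log2 signals that the authors made with GCRMA, as the submitters' processing notes record. Version and settings: not given in the sources used here. Array medians lay between 2.65 and 2.70. No scanner files were used.

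Symbols came from the platform annotation, in which 34945 probe sets had 1 symbol and 932 several. All 91 OXPHOS genes matched the RefSeq table (GRCm38.p6) and 0 symbols changed. Arrays of a sample were averaged, and the 22518 probe sets (10600 genes) above the median mean signal of 2.72, 64 controls left out, entered the limma fit (version 3.58.1, R 4.3.3, lmFit, eBayes with an intensity trend). p-values were adjusted by Benjamini-Hochberg over all probe sets tested, never over the OXPHOS genes alone. The fits had 2 residual degrees of freedom and, with the shared variance estimate, 4.75 in all for genotype and 4.90 for the sample number. The procedure was also run on simulated data with added shifts of at least 1 log2 unit. These were larger than any genotype difference of the OXPHOS genes, so the run does not bear on differences of that size.

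Genes were named by a rule: the 3 highest means in each complex, the 4 lowest p in each direction of both comparisons, the isoforms of complex IV subunits, Ndufa4 and Ndufa4l2, and 2 genes of each other list. Other genes were named where a count or a pattern called for them, after their values were seen. The members and lists were chosen with earlier results of these data known. Alternatives covered the unit of replication, the replicate block, filters, normalization, probe set choice, the variance trend, the assembly factors, a Gapdh covariate and the omission of each sample and array. An outlier test of single samples was not possible with 2 per genotype.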

Additional observations from a re-analysis of the deposited data

Results flagged for a closer look

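In 9 OXPHOS genes all arrays lay in opposite order between the genotypes in the samples numbered 1 and in those numbered 2. This holds for 10.5% of the 86 genes above the filter and for 4.86% of all probe sets tested. The shares differ in unit, since each gene was read at its brightest probe set and the background holds dim probe sets too. They are therefore not directly comparable. The difference between the pairs was not tested.

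In 2 of the 9 genes Crebbp+/- was lower in number 1 and higher in number 2. Ndufa8, an accessory subunit of complex I, gave -0.339 (log2, Crebbp+/- minus wild type) in the samples numbered 1 and 0.262 in those numbered 2. For Uqcrfs1, the Rieske iron-sulfur protein of complex III, these differences were -0.155 and 0.244.

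The other 7 genes ran the opposite way. In complex I, Ndufab1, the mitochondrial acyl carrier protein, gave 0.0792 in number 1 and -0.133 in number 2. Ndufb2 gave 0.163 and -0.412, Ndufc2 gave 0.097 and -0.0595, and Ndufv3 gave 0.225 and -0.248 in the same order. Sdha of complex II gave 0.184 in number 1 and -0.139 in number 2. Uqcrc2 of complex III gave 0.124 and -0.141, and Atp5md, a small subunit of the ATP synthase, gave 0.134 and -0.225.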

How the results depend on the processing

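The 0 calls by genotype among OXPHOS genes held under all 24 alternatives, the replicate block included, and over all probe sets only the fit of 8 arrays as independent differed, with 1 call. In the paired analysis, which took the sample number as replicate block, 0 probe sets were called and the median over OXPHOS genes was again -0.01. The design is balanced, so this block cannot change the median. Samples of the same number deviated together with r = 0.55 across probe sets, but the labels do not say what the number marks. By sample number, 8 arrays as independent gave 18 OXPHOS genes and 3057 probe sets, a random block for the sample 8 and 1762, and a genotype block 10 and 2209, against 0 otherwise. Without the trend, the filter or a sample or array these counts stayed at 0. Of 921 recomputed values of named genes, 860 stayed within the spread, 42 moved further and 19 passed the test, these in fits by sample number. Settings that changed only the unit of replication, the block, the filter or the variance trend cannot alter a gene's difference. Leaving out the assembly factors does not alter it either, so such settings add to the 860 by construction.

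No result passed the test with the opposite sign, but most medians lay so near 0 that omissions turned them. Across omissions of 1 sample or array, the genotype median of all OXPHOS genes ran between -0.04276 and 0.04065, of complex I between -0.1689 and 0.0281, of the Ndufaf factors between -0.03399 and 0.2216, of complex II between -0.2761 and 0.05447, of complex III between -0.08683 and 0.177, of complex IV between -0.03892 and 0.08617 and of complex V between -0.004572 and 0.1086. The sample number medians ran between 0.03101 and 0.1251 over all, 0.05062 and 0.2326 in complex I, -0.1069 and 0.06404 in the Ndufaf factors, 0.2048 and 0.373 in complex II, -0.0195 and 0.2022 in complex III, -0.08895 and 0.07772 in complex IV and -0.07658 and 0.02368 in complex V. Wild-type sample 2 turned the genotype median of complex I when left out, at 0.03.

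The Gapdh covariate gave genotype medians of -0.001228 in the Ndufaf factors and 0.005688 in complex V, and averaging all probe sets per gene gave 0.007994 in complex V. For the sample number, median centring gave 0.1328 over all, 0.2089 in complex III, 0.02817 in complex IV and 0.03782 in complex V, and quantile normalization gave 0.1107 over all and 0.01524 in complex IV. Averaging all probe sets per gene gave 0.03249 over all, -0.06543 in the Ndufaf factors, 0.07686 in complex II, 0.07427 in complex III and 0.1041 in complex IV. Without _x_at and _s_at sets the values were 0.09532 in complex II, -0.06585 in complex IV and -0.09355 in complex V. The cause of these shifts was not tested. Precision rests on 2 samples per genotype and 2 residual degrees of freedom, and the signal over background of scanner data was not analysed here.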

Other observations

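Probe sets with several symbols were outside the naming rule but bear on subunits of complex I. The single-symbol probe set of Ndufb4 lay at 2.30, under the filter, whereas a probe set shared by Ndufb4, Ndufb4b and Ndufb4c read 10.65 and 10.46 in Crebbp+/- samples 1 and 2, against 10.81 and 10.57 in wild-type samples 1 and 2. A second shared set read 9.94 and 9.51 in Crebbp+/- samples 1 and 2, against 10.01 and 9.47 in wild-type samples 1 and 2. The set shared by Ndufa11 and Ndufa11b differed between Crebbp+/- and wild type by 0.14 ± 0.19 (SE) and that shared by Ndufs6 and Ndufs6b by 0.15 ± 0.22, with limma adjusted p of 0.991 and 0.993. Which of the listed genes these sets read was not tested.

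ND5, a core subunit of complex I encoded in the mitochondrial genome, read 12.37 and 12.67 in Crebbp+/- samples 1 and 2, against 12.43 and 12.79 in wild-type samples 1 and 2. It was higher in number 2 in both genotypes, at 0.33 ± 0.07 (SE, limma adjusted p 0.178 without a genotype term), and overlapped between genotypes.

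Of the regulators, Ppargc1a, a coactivator of mitochondrial genes, read 3.16 and 3.39 in Crebbp+/- samples 1 and 2, against 4.38 and 3.34 in wild-type samples 1 and 2. It was chosen after its values were seen, and its genotypes overlapped. Nrf1 read 6.84 and 6.59 in Crebbp+/- samples 1 and 2, against 7.43 and 6.33 in wild-type samples 1 and 2, and also overlapped.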
